A study of Mus musculus with 6 samples.

Results

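7SL and 7SK are 2 abundant small RNAs that RNA polymerase III makes in every cell, and they were described here in the exosomes of P19 cells. They were taken by name as the transcripts Rn7s1, Rn7s2 and Rn7sk, which are 3 of the 5880 non-coding transcripts in the deposited table. P19 is a mouse embryonal carcinoma line that turns into neurons after treatment with retinoic acid. The 6 small RNA libraries came from exosomes of the undifferentiated line (UD-P19, replicates 1 to 3) and of neurons made from it (P19N, replicates 4 to 6). The exosomes of both groups were pelleted by ultracentrifugation from medium without serum. The paper describes the libraries as biological replicates, and all came from the 1 line. The medium was alpha-MEM for UD-P19 and neurobasal for P19N. Only P19N cultures are described as treated with 5-fluorouridine and uridine, on day 3 and on day 8 after that day's collection. These differences cannot be told apart from group, nor the day 8 treatment from P19N replicate. P19N replicates 4, 5 and 6 were taken from neurons aged 8, 10 and 12 days, and age cannot be told apart from replicate. Fewer vesicles of a kind and less RNA per vesicle cannot be told apart in such preparations either.

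7SL RNA is the scaffold of the signal recognition particle, which binds a signal peptide as it leaves the ribosome and brings the ribosome to the endoplasmic reticulum. Its 5′ and 3′ ends pair to form the Alu domain, which slows translation, and its middle forms the S domain, which recognises the signal peptide. The B1 repeats of the mouse genome descend from the 7SL gene. 7SK RNA sits in the nucleus, where with HEXIM and LARP7 proteins it holds the elongation factor P-TEFb in an inactive form and so limits release of paused RNA polymerase II. Many pseudogenes of both RNAs lie across the genome.

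Rn7s1 and Rn7s2 both encode 7SL. In GRCm38, Rn7s1 lies on the plus strand at chr12:69159295-69159594 and Rn7s2 on the minus strand at chr12:69361182-69361481, with 201587 bases between them. Both are annotated as misc_RNA genes of 1 transcript, and their 300 bases were identical. Rn7sk, the 7SK gene, lies on the minus strand at chr9:78175303-78175633 and its transcript has 331 bases. Transcripts annotated as miRNAs hold 2 stretches of 7SL without a mismatch, bases 143 to 212 in the S domain and bases 224 to 300 at the 3′ end. Of 7SK the last 90 bases are shown from the GENCODE annotation, because the counts below turn on them, bases 242 to 331 (chr9:78175303-78175392), since the first 241 bases stand without a mismatch in another transcript, Gm24447.
7SK RNA of Rn7sk, 3′ end: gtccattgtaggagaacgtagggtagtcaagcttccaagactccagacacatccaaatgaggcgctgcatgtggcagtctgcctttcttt

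How far the counts belong to these genes depended on the sequence shared with other transcripts of the table. A similar transcript was one with at least 80% identity over at least 50 bases by BLAST on the same strand. For 7SL, 93 other transcripts were similar and 84 of them had counts, 12370 in all. Of the 93, 68 aligned only within the first 61 bases of 7SL, where 7SL resembles B1 repeats. Another 72 transcripts aligned within these bases on the opposite strand. Malat1, a nuclear long non-coding RNA, had the most counts of the similar transcripts, 2310, but it shared only 61 aligned bases at 83.6% identity and 2086 of its counts were unique to it. It was called higher in P19N, at a log2 fold change of 1.67 ± 0.42 (adjusted p = 0.00866 by edgeR's quasi-likelihood test), but not without UD-P19 replicate 1 or 3 or P19N replicate 4 or 5 (log2 fold changes of 1.24 to 1.34, highest adjusted p = 0.103). Rn7s6, a 7SL-like transcript with 98.6% identity over the first 214 bases, followed with 2214 counts. Gm47295, annotated as a miRNA of 79 bases and identical to the last 77 bases of 7SL, held 1706 counts.

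For 7SK, 24 other transcripts were similar, all of them annotated as misc_RNA, and 16 had counts, 2046 in all. Gm24447 had 613 counts and is identical to 7SK over bases 1 to 241. Gm26315 had 585 counts and 99.6% identity over bases 5 to 242. Gm26035 had 484 counts and 96.1% identity over bases 1 to 229. These copies thus share the 5′ part of 7SK, and of all similar transcripts only Gm23037, with 2 counts, aligned with 7SK up to its last base.

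**Figure D1:**
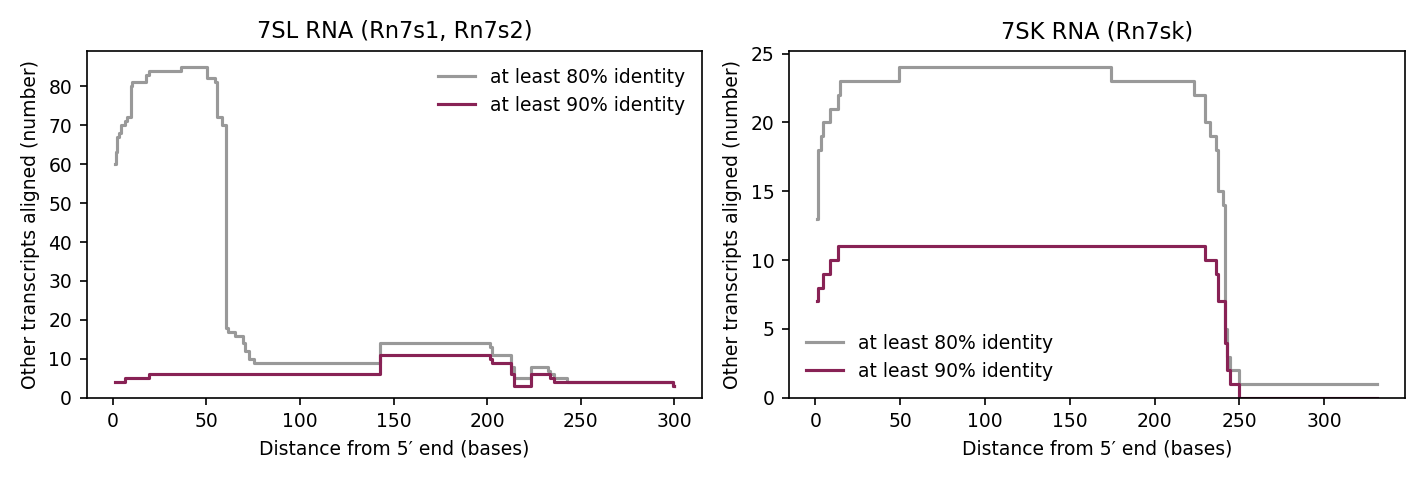
Number of other transcripts in the table that align on the same strand with each base of 7SL (left) and 7SK (right), against the distance from the 5′ end in bases; grey lines count alignments of at least 80% identity and purple lines those of at least 90%. Similar transcripts pile up over the first 61 bases of 7SL and over the first 241 bases of 7SK, and the 3′ end of 7SK is nearly free of them.

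The deposited columns of unique counts, read as counts of reads that match 1 transcript only, showed this directly. Rn7s1 and Rn7s2 had 0 unique counts in all 6 libraries, as 2 genes of identical sequence must. Their counts were also split evenly. Rn7s1 had 242, 1282 and 583 counts in UD-P19 replicates 1, 2 and 3 and 1517, 1461 and 750 counts in P19N replicates 4, 5 and 6. Rn7s2 had 250, 1314 and 572 counts in UD-P19 and 1533, 1465 and 755 counts in P19N. The share of 7SL counts placed at Rn7s1 was between 49.2% and 50.5%, and every exact binomial 95% interval included an even split (chi-square over 6 libraries, p = 0.994). Nothing in the table tells which of the 2 genes was transcribed, and they were added up as 7SL. Rn7sk, in contrast, kept 155, 372 and 215 unique counts in UD-P19 and 709, 529 and 227 in P19N.

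7SL was the more abundant of the 2 RNAs in every library. It held 492, 2596 and 1155 counts in UD-P19 and 3050, 2926 and 1505 counts in P19N. Rn7sk held 189, 437 and 260 counts in UD-P19 and 948, 691 and 325 counts in P19N. Per kilobase of transcript and per 1000000 scaled counts of the library (CPM, TMM-scaled), the level of 7SL was 4017, 10228 and 6355 in UD-P19 and 11947, 12867 and 6981 in P19N. On the same scale the level of 7SK was 1398, 1560 and 1297 in UD-P19 and 3366, 2754 and 1366 in P19N. On this scale 7SL was thus between 2.87 and 6.55 times 7SK, with both ends of this range in UD-P19, at replicates 1 and 2. The scale takes counts to rise with transcript length, which was not tested, and it leaves out counts placed at copies.

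The first comparison asks whether the exosomes of neurons hold more or less of these RNAs than those of undifferentiated cells. None of the 3 transcripts was called as changed by edgeR's quasi-likelihood test at an adjusted p of 0.05, a call that 24.0% of the 1286 tested transcripts received. None of them had an unadjusted p under 0.05 either, against 494 of all 1286 transcripts, and edgeR's exact test and DESeq2 called 0 of the 3, against 343 and 378 of all. Levels of both RNAs were higher on average in P19N, but the groups overlapped. In CPM, 7SL stood at 2060 ± 941 in UD-P19 and 3180 ± 950 in P19N (SD, n = 3 each). UD-P19 replicate 2, at 3068 CPM, lay above P19N replicate 6, at 2094 CPM, while UD-P19 replicates 1 and 3 were below all P19N libraries at 1205 and 1906 CPM. The log2 fold change of summed 7SL was 0.61 ± 0.40 (SE, adjusted p = 0.265), and those of Rn7s1 and Rn7s2 fitted on their own were 0.63 ± 0.41 (adjusted p = 0.266) and 0.62 ± 0.41 (adjusted p = 0.272). The median log2 fold change over all transcripts in the fit of summed 7SL was 0.20, which leaves 0.41 for 7SL.

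7SK was close within UD-P19, at 463, 517 and 429 CPM, and spread within P19N, at 1114, 912 and 452 CPM. The libraries of 8-day and 10-day neurons were above all UD-P19 libraries, and that of 12-day neurons lay among them. The log2 fold change of Rn7sk was 0.81 ± 0.41 (SE, adjusted p = 0.150 by edgeR's quasi-likelihood test), or 0.60 above the median of all transcripts.

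**Figure D2:**
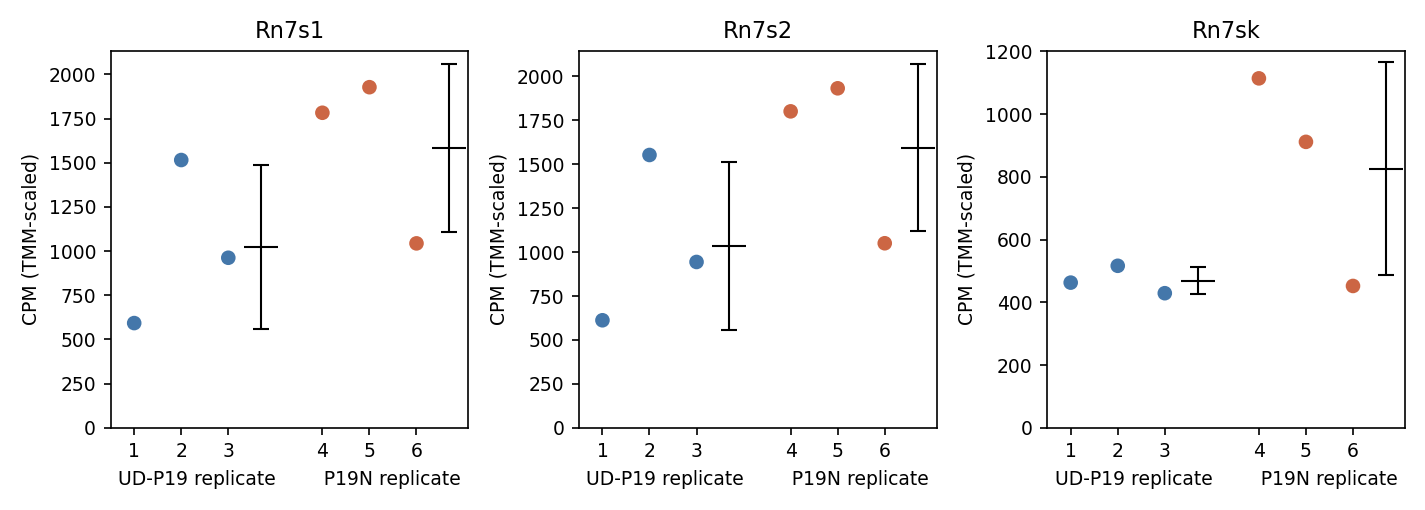
CPM of Rn7s1, Rn7s2 and Rn7sk in each library, with UD-P19 replicates in blue and P19N replicates in orange; black lines are group means and bars are SDs (n = 3). UD-P19 replicate 2 is high for both 7SL genes, and P19N replicate 6 lies within the UD-P19 range for Rn7sk at 452 CPM.

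Single libraries decided these calls. Without UD-P19 replicate 2, both RNAs were called higher in P19N, at log2 fold changes of 1.21 ± 0.30 for summed 7SL (adjusted p = 0.00231) and 1.03 ± 0.34 for Rn7sk (adjusted p = 0.0156), in a fit that called 46.6% of 1145 transcripts and had a median log2 fold change of 0.60. Without UD-P19 replicate 1, the log2 fold change of 7SL was 0.06. Without P19N replicate 6, that of Rn7sk was 1.12 and was called (adjusted p = 0.0467), in a fit that called 25.5% of 1194 transcripts, and without P19N replicate 4 it was 0.33 (adjusted p = 0.715). On exact counts, read as counts of reads without a mismatch, Rn7sk was called at 0.94 ± 0.36 (adjusted p = 0.0486), where 37.4% of 966 transcripts were called, and 7SL was not, at 0.86 ± 0.38 (adjusted p = 0.0866).

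Shares of counts moved with what was counted in the total. Gm42418, annotated as a lincRNA, took 49.1% to 65.9% of all counts in UD-P19 and 16.3% to 18.2% in P19N. Which RNA its reads came from was not tested. Small nuclear RNAs took 4.76% to 7.38% in UD-P19 and 48.2% to 52.7% in P19N. Of all counts, 7SL made up 0.108%, 0.368% and 0.151% in UD-P19 and 0.344%, 0.385% and 0.256% in P19N (exact two-sided permutation test, p = 0.3, where 3 against 3 libraries cannot give a p under 0.1). The exact binomial 95% intervals, which cover counting error only, ran from 0.0989% to 0.118% at UD-P19 replicate 1 and from 0.354% to 0.383% at replicate 2. 7SK made up 0.0416%, 0.0620% and 0.0341% of all counts in UD-P19 and 0.107%, 0.0909% and 0.0552% in P19N (exact permutation p = 0.2).

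Of the counts outside Gm42418, 7SL made up 0.480% ± 0.228 in UD-P19 and 0.395% ± 0.0752 in P19N, and 7SK 0.109% ± 0.0116 and 0.101% ± 0.0310 (SD, n = 3 each, exact permutation p = 0.8 and 0.9). Both means were then lower in P19N. A change of the total multiplies the shares of all transcripts of a library by 1 factor. How many other transcripts turned in this way was not counted. Of the counts outside small nuclear RNAs, both RNAs were higher in every P19N library than in any UD-P19 library, as were 43.5% of the 1083 tested transcripts outside this class. 7SL then stood at 0.223% ± 0.148 and 0.667% ± 0.152, and 7SK at 0.0489% ± 0.0155 and 0.172% ± 0.0606 (exact permutation p = 0.1 for each). With both left out of the total, a choice made after seeing the data, 7SL stood at 0.557% ± 0.247 and 1.02% ± 0.222 (exact permutation p = 0.2) and 7SK at 0.127% ± 0.0110 and 0.263% ± 0.0930 (exact permutation p = 0.1). With TMM scaling computed without Gm42418, the log2 fold changes stayed above 0, at 0.37 for 7SL and 0.55 for Rn7sk, which is 0.38 and 0.57 above the median of all transcripts.

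**Figure D3:**
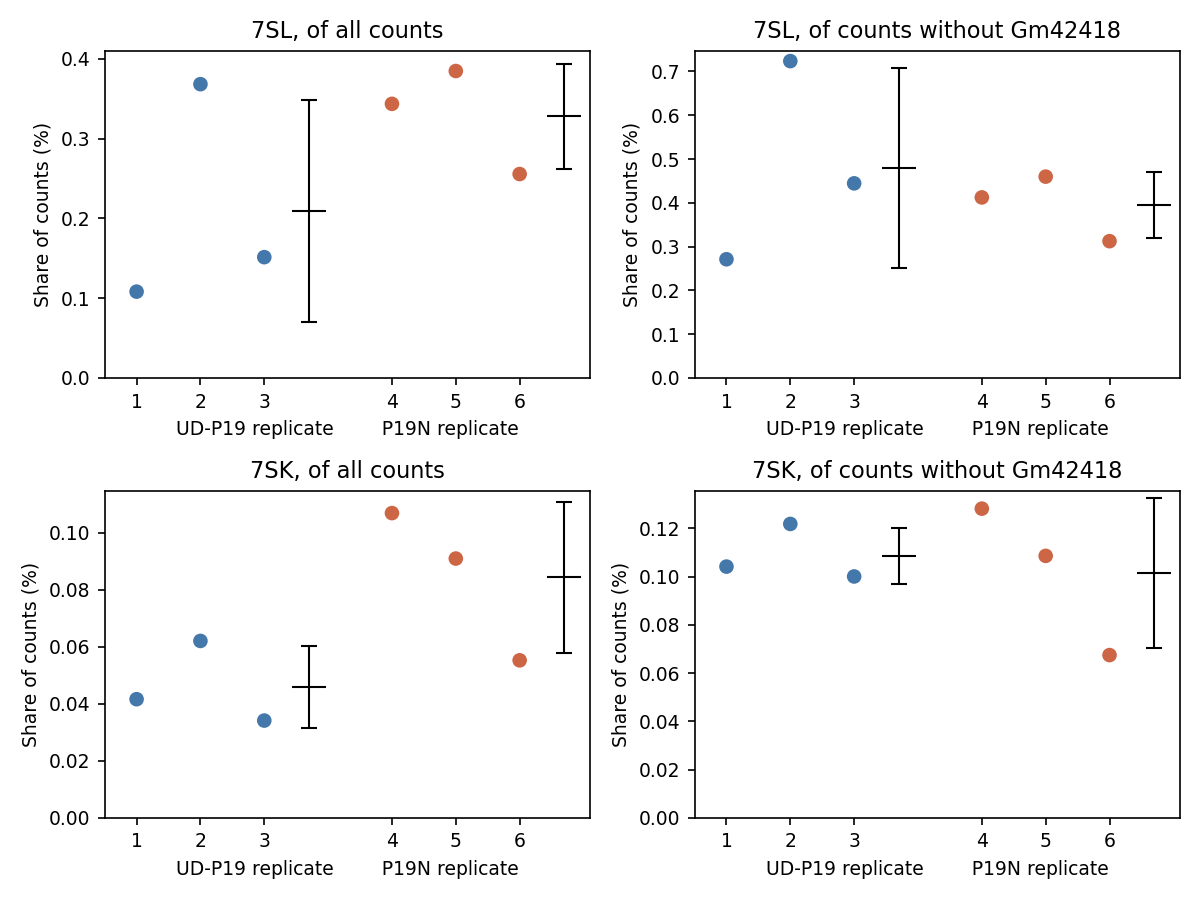
Share of counts in percent taken by 7SL (top) and 7SK (bottom) in each library, of all counts (left) and of counts outside Gm42418 (right), with UD-P19 in blue and P19N in orange; black lines are group means and bars are SDs (n = 3). The P19N mean is above the UD-P19 mean on the left and below it on the right, for both RNAs.

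The ratio of the 2 RNAs within 1 library does not depend on scaling. The counts of 7SL were 2.60, 5.94 and 4.44 times those of Rn7sk in UD-P19 and 3.22, 4.23 and 4.63 times in P19N. The log2 ratio was 2.03 ± 0.60 in UD-P19 and 1.99 ± 0.27 in P19N (SD, n = 3 each, exact permutation p = 0.9), and a difference between the changes of 7SL and 7SK was not detectable. This was 1 of 3 ratios computed, and its p adjusted over the 3 was 0.9. The other 2 set 7SL and 7SK against Rny1, which was chosen after its values were seen, so nothing is read from them (exact permutation p = 0.1 each, 0.15 adjusted).

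The other RNA polymerase III transcripts give the background for this family. Of 8 listed transcripts, 3 were called higher in P19N by edgeR's quasi-likelihood test, against 193 called higher and 116 called lower of the 1286 tested (24.0%). The exact test of edgeR called 4 of the 8 and DESeq2 3, against 343 and 378 of all, and 5 had an unadjusted p under 0.05, against 494 of all. None of the 8 was called lower by these tests, which called 116, 132 and 203 of all transcripts lower, and none had an unadjusted p under 0.05 with a lower level, against 220 of all. Rny1 and Rny3, the Y RNAs that bind the Ro60 protein, had log2 fold changes of 1.74 ± 0.30 (adjusted p = 0.000689) and 1.93 ± 0.34 (adjusted p = 0.000674). Rmrp, the RNA of RNase MRP that cuts ribosomal RNA precursors, had 2 entries. The one annotated as lincRNA was called at 1.75 ± 0.32 (adjusted p = 0.000991) and the one annotated as ribozyme was not, at 1.19 ± 0.44 (adjusted p = 0.0585), though it was called under 7 of 16 other settings, edgeR's exact test among them. The calls of Rny1, Rny3 and the lincRNA entry stood under all 16. Rpph1, the RNA of RNase P that trims the 5′ end of tRNA precursors, had 1.14 ± 0.51 (adjusted p = 0.110) and was called under 3 of the 16. Rnu6, the U6 RNA of the spliceosome, had 0.93 ± 0.81 (adjusted p = 0.406) at between 1 and 21 counts per library, and its log2 fold change was 1.90 if UD-P19 replicate 2 was left out and 0.27 if P19N replicate 5 was. The vault RNA Vaultrc5 had -0.01 ± 0.54 (adjusted p = 0.985) and turned above 0 under 6 other settings. Bc1, a neuronal RNA that represses translation, had -1.41 ± 0.68 (adjusted p = 0.139) at between 3 and 23 counts per library, and -0.52 (adjusted p = 0.541) without UD-P19 replicate 2, which held 23 of them.

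**Figure D4:**
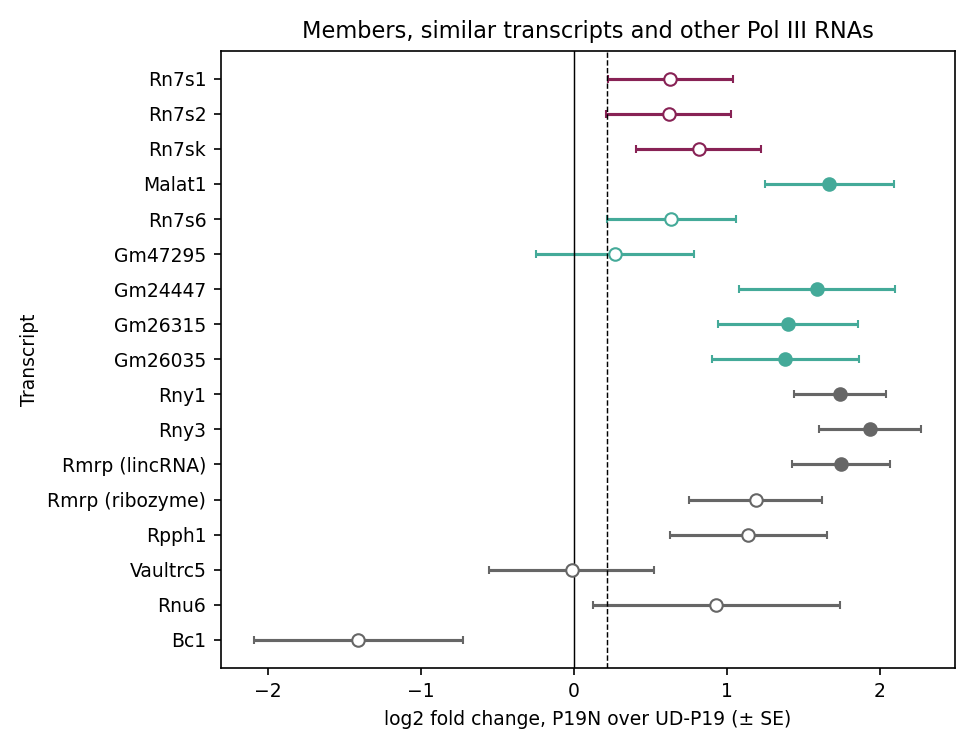
Log2 fold change of P19N over UD-P19 with its SE for the 7SL and 7SK genes (purple), 3 similar transcripts of each (green) and other RNA polymerase III transcripts (grey); filled circles passed an adjusted p of 0.05 and the dashed line is the median of all tested transcripts at 0.21. The 3 purple circles are open, and Malat1 and the 3 transcripts similar to 7SK (Gm24447, Gm26315 and Gm26035) are filled.

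Copies of 7SK were called higher in P19N where Rn7sk was not. Gm24447 had 105, 61.5 and 41.3 CPM in UD-P19 and 297, 204 and 118 CPM in P19N, a log2 fold change of 1.59 ± 0.51 (adjusted p = 0.0303). Gm26315 and Gm26035 had log2 fold changes of 1.40 ± 0.46 (adjusted p = 0.0340) and 1.38 ± 0.48 (adjusted p = 0.0473). All 3 were higher in every P19N library than in any UD-P19 library, as were 25.2% of the 1286 transcripts. Of the 7 tested transcripts with at least 90% identity to 7SK, these 3 were called by the quasi-likelihood test, against 24.0% of all tested, and none was called lower. Of the 7, 5 had an unadjusted p under 0.05, against 494 of all 1286 transcripts. DESeq2 and edgeR's exact test called 3 and 4 of the 7, against 378 and 343 of all 1286. With scaling computed without Gm42418 their log2 fold changes were 1.35, 1.15 and 1.12 and their adjusted p 0.0537, 0.0717 and 0.0942. With DESeq2 size factors the log2 fold changes were 1.38, 1.20 and 1.18 and the adjusted p 0.0516, 0.0564 and 0.0744. Gm26315 and Gm26035 also lost the call with no filter, at log2 fold changes of 1.38 and 1.36, and without UD-P19 replicate 1, at 1.23 each. None of the 3 was called without UD-P19 replicate 3 or without P19N replicate 4 or 5, where their log2 fold changes ran from 0.91 to 1.36 and the highest adjusted p was 0.337. They share their reads with Rn7sk and with each other, so they are not separate evidence. Whether their changes differed from that of Rn7sk was not tested. The unique share given below is of the counts of Rn7sk alone and holds no counts of these copies.

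Because Gm24447 holds the first 241 bases of 7SK without a mismatch, a read within those bases could not be unique to Rn7sk, and on this reading of the column a unique read must reach into the last 90 bases. The table gives no read positions beyond this. Unique counts made up 82.0%, 85.1% and 82.7% of Rn7sk counts in UD-P19 and 74.8%, 76.6% and 69.8% in P19N. The unique share was lower in every P19N library than in any UD-P19 library, at 83.3% ± 1.64 against 73.7% ± 3.48 (SD, n = 3 each, exact permutation p = 0.1, the smallest possible). Of the 69 transcripts with at least 50 counts in every library and a unique share above 0% and below 100% in some library, 29.0% had such a drop without overlap. Over the whole library, the unique share was 74.3%, 62.1% and 78.0% in UD-P19 and 33.3%, 32.1% and 38.5% in P19N. The part of this library-wide drop in the share of Rn7sk was not tested.

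The unique counts of Rn7sk alone stood at 380, 440 and 355 CPM in UD-P19 and 833, 698 and 316 CPM in P19N, so that P19N replicate 6 was below all UD-P19 libraries (exact permutation p = 0.4). All other counts of Rn7sk and its copies, which include every read within the first 241 bases, stood at 414, 321 and 292 CPM in UD-P19 and 1165, 906 and 532 CPM in P19N, with no overlap between the groups (exact permutation p = 0.1), as for 25.2% of the 1286 transcripts. Fitted as 1 transcript with its copies, 7SK reached 1.02 ± 0.39 on the log2 scale (adjusted p = 0.0711 by edgeR's quasi-likelihood test), and fitted on unique counts it had 0.70 ± 0.42 (adjusted p = 0.241). These values lay 0.82 and 0.75 above the median of all transcripts in each fit.

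**Figure D5:**
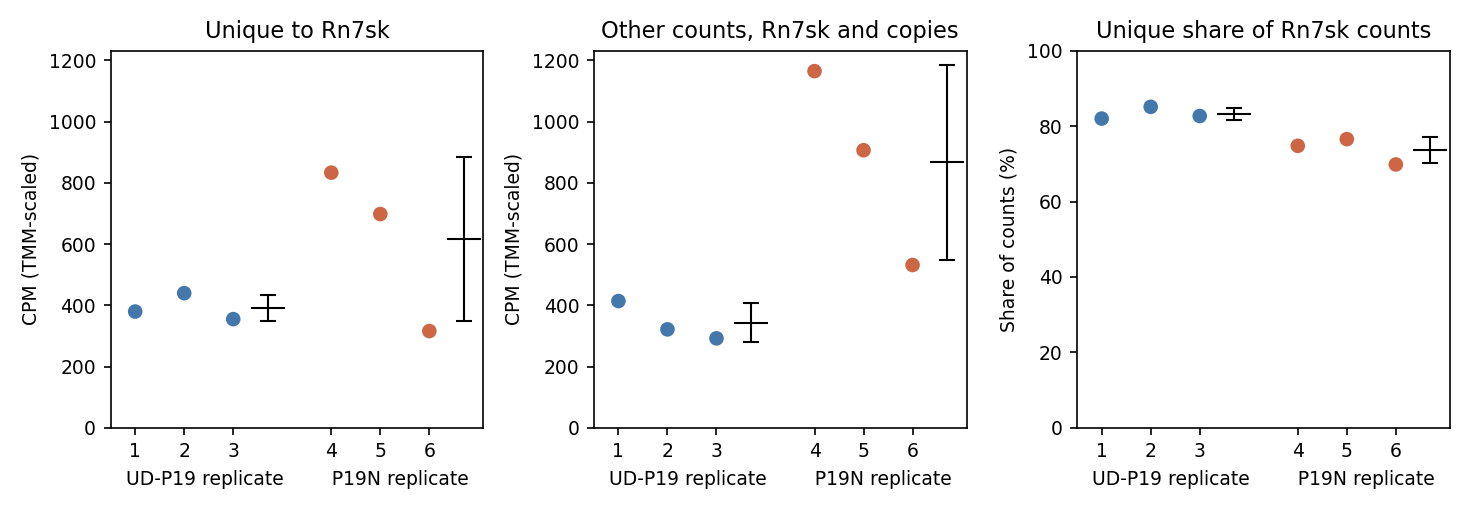
CPM of counts unique to Rn7sk (left), CPM of all other counts of Rn7sk and its 11 copies (middle) and unique share of Rn7sk counts in percent (right) in each library, with UD-P19 in blue and P19N in orange; black lines are group means and bars are SDs (n = 3). The groups overlap on the left, and do not overlap in the middle or on the right.

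Copies of 7SL had log2 fold changes from -0.85 to 1.57. Of 11 tested transcripts with at least 90% identity to 7SL, none was called as higher or lower by edgeR's quasi-likelihood test, edgeR's exact test or DESeq2, against 309, 343 and 378 of all 1286 transcripts, and 2 had an unadjusted p under 0.05, against 494 of all. The 14 copies of this identity, tested or not, held 9567 counts, of which 27 were unique, so the 11 are not separate evidence. For Rn7s6 the log2 fold change was 0.64 ± 0.42 (adjusted p = 0.274 by edgeR's quasi-likelihood test). It was 0.12 without UD-P19 replicate 1, and 1.09 and called without UD-P19 replicate 2 (adjusted p = 0.0132). With its 14 copies added, 7SL had 885, 5119 and 2050 counts in UD-P19 and 5335, 5218 and 2684 in P19N, and a log2 fold change of 0.58 ± 0.41 (adjusted p = 0.306).

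Some transcripts hold only a stretch of 7SL, and they were picked after their values were seen. How reads shared with Rn7s1 and Rn7s2 were assigned is not known. Gm47295 and Gm47299 are identical to the last 77 bases, and their mean count was 24.4%, 41.1% and 24.8% of the mean of Rn7s1 and Rn7s2 in UD-P19 and 25.5%, 24.9% and 28.3% in P19N. UD-P19 replicate 2 had the highest of these values. For Gm47295 itself the log2 fold change was 0.27 ± 0.52 (adjusted p = 0.734). It was 1.35 and called without UD-P19 replicate 2 (adjusted p = 0.00492), and was below 0, down to -0.40, without UD-P19 replicate 1 or 3 or P19N replicate 4 or 5. Gm47287, Gm47305 and Gm47304 are identical to the 70 bases of 7SL from 143 to 212, and their mean count was only 0.542%, 1.26% and 2.14% of that of the 2 genes in UD-P19 and 2.82%, 2.51% and 2.26% in P19N. The groups almost touched, at UD-P19 replicate 3 and P19N replicate 6, and at UD-P19 replicate 1 the share rested on 1, 1 and 2 counts in the 3 transcripts.

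Reads without a mismatch made up a higher share of both RNAs in every P19N library than in any UD-P19 library. Of the 7SL counts, 70.5%, 51.2% and 71.7% were exact in UD-P19 and 77.6%, 79.2% and 77.8% in P19N, a mean of 64.5% ± 11.5 against 78.2% ± 0.829 (SD, n = 3 each, exact permutation p = 0.1). Of the Rn7sk counts, 68.3%, 62.2% and 73.8% were exact in UD-P19 and 78.8%, 79.7% and 81.2% in P19N, a mean of 68.1% ± 5.80 against 79.9% ± 1.23 (exact permutation p = 0.1). Neither RNA had an overlap between the groups, which held in this direction for 32.7% of the 278 transcripts with at least 50 counts in every library. UD-P19 replicate 2 had the lowest exact share for both RNAs, and also over the whole library, where it was 44.2% against 57.0% and 60.4% in UD-P19 and 58.4% to 64.4% in P19N. The part of this library-wide difference in the values of the RNAs was not tested.

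The transcripts whose levels ran most like those of the 2 RNAs were found by Pearson correlation of log2 CPM over the 6 libraries, among transcripts of other sequence with at least 100 counts in total. These correlations are descriptions over 6 points that share library depth and group. For 7SL they were Gm26247, annotated as a snoRNA (r = 0.96), Gm48161, a sense intronic RNA (r = 0.94), and Gm22589, also annotated as a snoRNA (r = 0.93), of 612 candidates. For 7SK they were Gm45322, a lincRNA (r = 0.98), a non-coding transcript of Cct6a, the gene of a chaperonin subunit (r = 0.96), and Gm25202, annotated as an snRNA (r = 0.95), of 626 candidates. 7SL and 7SK correlated with each other at r = 0.77. Of these 6 transcripts, only Gm25202 was called in the comparison of the groups, at a log2 fold change of 2.46 (adjusted p = 0.00329 by edgeR's quasi-likelihood test). That test called 24.0% of all 1286 transcripts, and the 6 were picked on the same libraries, so nothing is read from this count.

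Total counts were between 454499 and 887460 per library. Markers of the 2 cell states were thin in this table. The 3 listed precursors of the neural miRNA miR-9 had 0 counts in all UD-P19 libraries and 4, 0 and 3 counts in P19N, and 3 listed precursors of the miR-290 and miR-302 clusters of pluripotent cells had 1, 8 and 1 counts in UD-P19 and 0 in P19N.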

How the data were processed

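RNA of 6 exosome preparations, 3 per group, was made into small RNA libraries and sequenced as read pairs. The authors trimmed and paired the reads and matched them to non-coding transcripts of GRCm38 in CLC Genomics Workbench with default settings, and the deposited counts are reads per transcript without normalization. How reads that match several transcripts were assigned is not given in the sources used here. Neither is the meaning of the deposited columns called unique and exact, which were taken as reads that match 1 transcript and, by assumption, as reads without a mismatch. Deposited group means, fold changes and p-values of the authors' own edgeR comparison were not used.

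Of 5880 transcripts, 5770 had their identifier in GENCODE mouse release 21, which gave symbols, positions and sequences. The 1286 transcripts that totalled 15 counts or more were tested by quasi-likelihood in edgeR 4.0.16 in R 4.3.3 (TMM, no covariate, Benjamini-Hochberg over all tested) and called at an adjusted p of 0.05. SEs are the fitted coefficient over the root of its F statistic. Log2 CPM used a prior count of 2. Rn7s1 and Rn7s2 were summed as 7SL in a second fit. Ratios and shares were compared by exact two-sided permutation tests over 20 relabellings. Sequences were compared with BLAST 2.17.0. The fits were tested on simulated data. Named transcripts were the members, the 3 similar ones with most counts per RNA, the RNA polymerase III list, the 3 most correlated per RNA, and Gm42418, and others are named as chosen later. Members and lists were chosen with earlier results of these data known. The alternatives were other filters, scalings, tests, count columns and denominators, and each library left out. Sums with copies of at least 90% identity, the total without both Gm42418 and snRNAs, and the alternatives for transcripts other than the members, were added after seeing the data. P-values measure the spread between 3 preparations per group. The paper describes repeated collection of P19N medium as the cultures aged. Whether the 3 P19N preparations came from separate cultures is not stated.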

Additional observations from a re-analysis of the deposited data

How the results depend on the processing

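Of 120 other settings of the 11 main results, 108 kept direction and side of the threshold. Results that rest on permutation tests could not change side of the threshold, so for these only the direction could change. Rn7sk passed on exact counts (0.94). Leaving out each library in turn gave log2 fold changes of 0.064 to 1.19 for Rn7s1, 0.062 to 1.20 for Rn7s2, 0.063 to 1.21 for summed 7SL and 0.33 to 1.12 for Rn7sk, with all 4 past the threshold without UD-P19 replicate 2 and Rn7sk also without P19N replicate 6. The difference in the log2 ratio of 7SL to 7SK, -0.04, turned to 0.020 on exact counts and ran from -0.37 to 0.23 with each library left out. Outside Gm42418, the differences in the share of counts turned to -0.0849 percentage points for 7SL and -0.00727 for 7SK. Among the other transcripts, Gm47295 turned to -0.0070 with scaling without Gm42418 and ran from -0.40 to 1.35 with each library left out. Vaultrc5 turned to 0.14 with filterByExpr, 0.0081 with TMMwsp, 0.16 with total counts only and 0.029 with scaling without snRNAs, and ran from -0.47 to 0.048 with each library left out. The cause was not tested.

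The quasi-likelihood test called 309 transcripts, 193 higher and 116 lower in P19N. It called 533 without UD-P19 replicate 2, 199 without P19N replicate 4 and 127 on unique counts, where only 510 were tested. With scaling without Gm42418 it called 174 higher and 196 lower, and the median log2 fold change of all transcripts moved from 0.21 to -0.03. Unique counts gave no value for 7SL or the ratio, since 7SL had none, and no transcript met the limits for a near-identical copy of Rn7sk. No paired analysis was possible because the groups share no replicate numbers. With 3 libraries per group the permutation tests could not pass 0.05.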
